A study of Homo sapiens with 12 samples.

Results

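The transcripts described are those of 10 genes that build the desmosome or its plakin partners: the cadherins DSG2, DSG3, DSC2 and DSC3, and the plaque proteins DSP, PKP1, PKP3, JUP, PPL and EVPL. They were taken as every probe set (a group of probes on the array read as 1 value) whose platform annotation names exactly 1 gene symbol, that symbol being among the 10. This gave 14 probe sets of 22215 on the array and 10 genes of 11963 with such a probe set, 2 each for DSC2, DSC3, PKP1 and PKP3 and 1 for each other gene. Each probe set is given separately. The rule that picked the probe sets uses no measured value, but the 10 genes were chosen with earlier results of these data known.

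The RNA of HMT-3522 S1, a human breast epithelial cell line that is not tumorigenic, was hybridised to 12 Affymetrix arrays in 3 groups of 4. The AGA group received 18-alpha-glycyrrhetinic acid, a blocker of gap junctions, and the Aza group received 5-aza-2'-deoxycytidine, which blocks DNA methyltransferases. Each drug was used at 10 µM for 10 days from plating, with medium renewed every 2 days, and both groups are labelled as not apically polarized. The vehicle group is labelled polarized, and the labels do not name the solvent. All cells were at passage 55 to 60, plated at 35000 per cm2 and grown in 5% Matrigel for 8 days with EGF and 48 hours without it, which yields acini, hollow spheres of a single cell layer. All 12 arrays thus describe 1 cell line. The series calls the 4 replicates biological without saying how the cultures were kept apart, so each p-value measures only the spread between these samples. Because RNA was taken from whole cultures, fewer cells of a type and less RNA per cell cannot be told apart.

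Desmosomes are junctions that tie the keratin filaments of neighbouring epithelial cells together. Desmogleins and desmocollins are calcium-dependent cadherins that bind across the gap between cells. Inside the cell their tails bind plakoglobin (JUP) and the plakophilins, which in turn bind desmoplakin (DSP), the plakin that holds the keratins. Periplakin (PPL) and envoplakin (EVPL) are plakins best known from the cornified envelope of stratified epithelium. In the mammary gland desmosomes join both the luminal and the basal cell layers, and DSG3 and DSC3 are known mainly from basal cells.

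The 4 cadherin genes lie in 1 cluster on chromosome 18. RefSeq promoter sequences, from 250 bases before to 50 bases after a gene's start (assembly GRCh38.p14), were found for 7 of the 10 genes, with 9 entries. PKP3, PPL and EVPL had none. The DSG2 and DSG3 promoters are shown since they differ widely in CG dinucleotides, the sites that DNA methyltransferases methylate, and since one of the groups received an inhibitor of those enzymes. Capitals mark each CG. The DSG2 sequence is chr18:31497927-31498226 and the DSG3 sequence chr18:31447491-31447790, both on the plus strand.
DSG2: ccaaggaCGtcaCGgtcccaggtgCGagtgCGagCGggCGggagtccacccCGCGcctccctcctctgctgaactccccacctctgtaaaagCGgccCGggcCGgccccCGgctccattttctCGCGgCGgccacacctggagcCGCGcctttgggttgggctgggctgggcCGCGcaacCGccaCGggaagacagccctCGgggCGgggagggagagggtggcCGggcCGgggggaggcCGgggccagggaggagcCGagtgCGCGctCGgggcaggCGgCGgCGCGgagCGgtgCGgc
DSG3: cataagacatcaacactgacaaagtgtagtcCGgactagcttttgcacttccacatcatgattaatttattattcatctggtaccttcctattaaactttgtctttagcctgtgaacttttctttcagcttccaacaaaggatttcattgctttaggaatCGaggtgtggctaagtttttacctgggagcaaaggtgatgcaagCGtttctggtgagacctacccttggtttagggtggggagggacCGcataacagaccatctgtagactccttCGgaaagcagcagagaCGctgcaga
The DSG2 window held 36 CG dinucleotides and the DSG3 window 6, against a median of 14 over 35116 promoters. The DSP window held 37, DSC3 25, the DSC2 windows 15 and 22, the JUP windows 23 and 19, and PKP1 19. Methylation was not measured here, so these counts only describe the sequence. The E-box CACCTG, searched on both strands, occurred 2 times in DSG2, 2 times in DSP, 1 time in 1 DSC2 window and 2 times in 1 JUP window, and in 20.6% of all promoters. Neither TGANTCA (7.71% of all promoters) nor TATAAA (11.5%) occurred in any of the 9 windows.

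Levels are log2 of the deposited intensity after a floor of 1 and quantile normalization, so that a difference of 1 is a doubling. The array medians of the deposited intensities lay between 23.3 and 35.9, and no desmosomal value lay below the floor on any array. In the first principal component over the 11107 probe sets above the median level, the 3 replicate 4 arrays (38.7 to 46.3) stood apart from the other 9 (at most -7.32). Arrays with the same replicate number deviated together, so differences are also given within same-number pairs. Basal epithelial markers were present: 6 of 8 had a probe set with 1 symbol, all 6 above the median level of the array. Their summed level, on the linear normalized scale, was 12956 to 15415 in AGA, 8887 to 13951 in Aza and 9167 to 14228 in vehicle. In AGA minus vehicle 6 of 6 basal markers were above 0, with a median of 0.25 and values of 0.74 for KRT14, 0.58 for LAMB3, 0.35 for ITGB4, 0.16 for CDH3, 0.03 for ITGA6 and 0.01 for KRT5. In Aza minus AGA 5 of 6 were below 0, with a median of -0.26. Limma called 0 of 6 in each comparison, in each fit. KRT5 averaged 12.46 ± 0.23 in AGA, 12.26 ± 0.27 in Aza and 12.45 ± 0.30 in vehicle (SD, n = 4 each). Of 8 luminal markers 3 lay above that median. GATA3 averaged 9.06 in AGA, 9.29 in Aza and 9.31 in vehicle. KRT18 averaged 8.24, 7.82 and 7.75 in the same order, and KRT8 7.61, 7.20 and 7.38. KRT19 was at the floor on every array, and EPCAM averaged 2.30 ± 1.56 in AGA, 1.32 ± 0.97 in Aza and 0.79 ± 0.91 in vehicle (SD, n = 4 each). The luminal sum was 1077 to 1176 in AGA, 950 to 1223 in Aza and 887 to 1229 in vehicle.

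**Figure D1:**
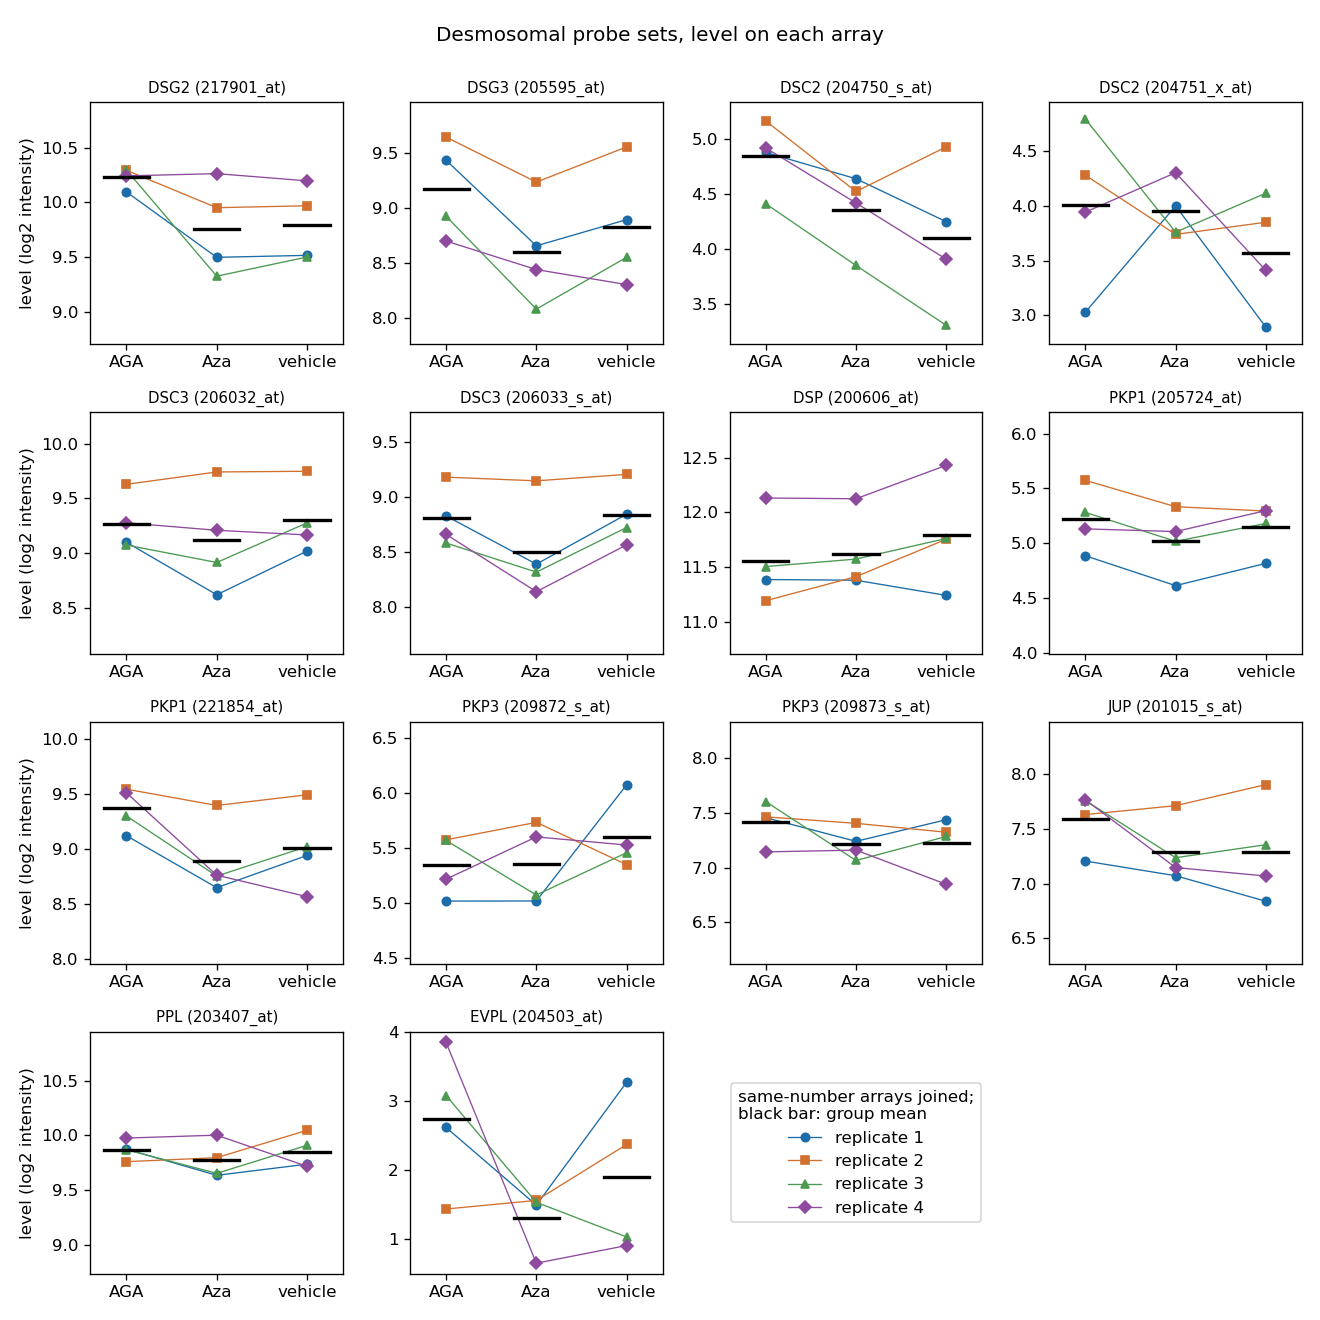
Level (log2 intensity) of each of the 14 desmosomal probe sets on every array, with AGA, Aza and vehicle from left to right, arrays of the same replicate number joined, and black bars for group means. Each panel has its own range. Replicate 4 is highest in every group for DSP and replicate 2 for DSC3 and DSG3, and the 3 groups overlap in every panel.

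Among the desmogleins, DSG2, the form found in simple as well as stratified epithelia, was 10.10, 10.29, 10.30 and 10.24 in AGA replicates 1 to 4. It was 9.50, 9.95, 9.33 and 10.26 in Aza, and 9.52, 9.97, 9.50 and 10.20 in vehicle. The AGA values were close together while Aza and vehicle moved with the replicate number, and replicate 4 was nearly equal in all 3 groups. Group means were 10.23 ± 0.09 in AGA, 9.76 ± 0.43 in Aza and 9.80 ± 0.34 in vehicle (SD, n = 4 each). DSG2 was higher in AGA than in vehicle in 4 of 4 pairs, by 0.43 ± 0.24 (SE; 95% interval -0.09 to 0.95), with a limma adjusted p of 1. With the replicate block the SE was 0.16 and the 95% interval 0.06 to 0.81, not adjusted for the number of probe sets, with a limma adjusted p of 0.492. Aza and vehicle differed by -0.04 (95% interval -0.56 to 0.48).

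DSG3, the desmoglein of basal and stratified epithelial cells, was 9.44, 9.65, 8.93 and 8.70 in AGA, 8.66, 9.24, 8.08 and 8.44 in Aza and 8.90, 9.56, 8.55 and 8.31 in vehicle. Replicate 2 was highest in every group, and the groups overlapped. Within pairs the order was more regular: AGA was above vehicle in 4 of 4 pairs (0.35 ± 0.34, SE) and above Aza in 4 of 4, with Aza minus AGA at -0.78, -0.41, -0.85 and -0.26. The mean difference of Aza from AGA was -0.57 ± 0.34 (SE; 95% interval -1.32 to 0.17), with a limma adjusted p of 1. A further fit took the replicate number as a block, with an intensity trend in the variance and the robust option of limma (block and trend). In it the same difference had an SE of 0.11 and a limma adjusted p of 0.014, so that DSG3 fell in Aza relative to AGA there. Of all probe sets, 0.860% passed there. This call did not hold without normalization (limma adjusted p = 0.28), with the replicate block but no trend (0.333), and without AGA 3 (0.0845), Aza 1 (0.0717), Aza 2 (0.0557) or Aza 3 (0.103).

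Among the desmocollins, DSC2, the desmocollin found in most epithelia, had 2 dim probe sets, with deposited intensities of 10.8 to 37.9 and of 6.76 to 22.9. The probe set 204750_s_at was 4.88, 5.17, 4.41 and 4.92 in AGA, 4.64, 4.53, 3.85 and 4.42 in Aza and 4.25, 4.93, 3.31 and 3.91 in vehicle. It was lowest in replicate 3 in each group, and vehicle varied most. AGA was higher than vehicle in 4 of 4 pairs, by 0.75 ± 0.33 (SE; 95% interval 0.02 to 1.47; limma adjusted p = 1, and 0.427 with the replicate block). The other DSC2 probe set, 204751_x_at, averaged 4.01 ± 0.74 in AGA, 3.95 ± 0.26 in Aza and 3.57 ± 0.53 in vehicle (SD, n = 4 each), and was also higher in AGA than in vehicle in 4 of 4 pairs (0.44 ± 0.37, SE). The suffixes of these probe sets mark probes that can match more than 1 transcript.

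DSC3, the desmocollin of basal cells, was measured by 2 bright probe sets that had nearly the same level in AGA and vehicle. Probe set 206032_at was 9.10, 9.63, 9.07 and 9.28 in AGA, 8.62, 9.74, 8.92 and 9.21 in Aza and 9.02, 9.75, 9.28 and 9.17 in vehicle. AGA minus vehicle was -0.03 ± 0.26 (SE; 95% interval -0.60 to 0.54), with pairs in both directions. Probe set 206033_s_at was 8.39, 9.15, 8.32 and 8.14 in Aza, 8.83, 9.18, 8.58 and 8.66 in AGA and 8.85, 9.21, 8.72 and 8.57 in vehicle. It was lower in Aza than in vehicle in 4 of 4 pairs, the only one of the 14 with that pattern, with differences of -0.45, -0.06, -0.41 and -0.43. The mean difference was -0.34 ± 0.25 (SE; 95% interval -0.88 to 0.21; limma adjusted p = 1, and 0.912 with the block), while the other DSC3 probe set differed by -0.18 and was higher in Aza in pair 4.

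Of the armadillo proteins that link the cadherin tails to desmoplakin, JUP, which also binds classical cadherins, was 7.20, 7.63, 7.76 and 7.76 in AGA, 7.07, 7.71, 7.24 and 7.15 in Aza and 6.84, 7.90, 7.35 and 7.07 in vehicle. AGA was higher than vehicle in 3 of 4 pairs (0.30 ± 0.25, SE), the exception being replicate 2, where all 3 groups lay within 7.63 to 7.90. Aza and vehicle had the same mean (7.29 ± 0.29 and 7.29 ± 0.46, SD, n = 4 each).

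PKP1, a plakophilin of stratified and basal cells, was read by a bright and a dim probe set. The bright one, 221854_at, was 9.12, 9.55, 9.30 and 9.51 in AGA, 8.65, 9.40, 8.75 and 8.76 in Aza and 8.94, 9.49, 9.02 and 8.57 in vehicle. AGA was above vehicle in 4 of 4 pairs, by 0.05 to 0.95, with the widest gap in replicate 4 and a mean of 0.36 ± 0.23 (SE; 95% interval -0.15 to 0.88). Aza was below AGA in 4 of 4 pairs (-0.48 ± 0.23, SE; limma adjusted p = 1, and 0.0657 with block and trend). The dim PKP1 probe set differed by 0.07 ± 0.21 (SE) between AGA and vehicle and was likewise lower in Aza than in AGA in 4 of 4 pairs (-0.20 ± 0.21, SE).

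The 2 probe sets of PKP3, a plakophilin found throughout most epithelia, disagreed in direction between AGA and vehicle. The brighter, 209873_s_at, averaged 7.41 ± 0.19 in AGA, 7.22 ± 0.14 in Aza and 7.22 ± 0.26 in vehicle (SD, n = 4 each) and was higher in AGA than in vehicle in 4 of 4 pairs (0.19 ± 0.17, SE). The dimmer, 209872_s_at, averaged 5.34 ± 0.28 in AGA, 5.36 ± 0.36 in Aza and 5.60 ± 0.32 in vehicle. Its difference of -0.26 ± 0.24 (SE) rested mainly on vehicle 1, at 6.08 against 5.35 to 5.53 on the other vehicle arrays.

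Among the plakins DSP gave one of the brightest signals, with deposited intensities of 2213 to 5572. It was 11.39, 11.20, 11.51 and 12.13 in AGA, 11.38, 11.41, 11.57 and 12.12 in Aza and 11.24, 11.76, 11.76 and 12.43 in vehicle. Replicate 4 was highest in all 3 groups, and the groups overlapped. DSP was lower in AGA than in vehicle in 3 of 4 pairs (-0.24 ± 0.29, SE; 95% interval -0.89 to 0.40) and lower in Aza than in vehicle in the same 3 (-0.17 ± 0.29, SE). It thus lay on the other side of 0 from both desmogleins in AGA, although neither difference passed. PPL, which varied little, was 9.87, 9.76, 9.87 and 9.98 in AGA, 9.64, 9.80, 9.65 and 10.00 in Aza and 9.74, 10.05, 9.91 and 9.72 in vehicle. Its 95% interval for AGA minus vehicle, -0.30 to 0.34, was the narrowest of the 14.

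EVPL was at the edge of measurement, with deposited intensities of 1.55 to 13.4. Its levels were 2.62, 1.43, 3.08 and 3.85 in AGA, 1.49, 1.56, 1.53 and 0.65 in Aza and 3.28, 2.37, 1.03 and 0.90 in vehicle. The AGA minus vehicle pairs, at -0.66, -0.94, 2.05 and 2.95, went in both directions. Aza minus AGA averaged -1.44 (95% interval -2.77 to -0.11, or -3.03 to 0.15 with the replicate block; limma adjusted p = 1), and a floor of 16 put every EVPL value at the floor.

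Over the 14 probe sets, the comparison of AGA with vehicle asked whether desmosomal transcripts differ between cultures given a gap junction blocker and vehicle cultures. The former are labelled not polarized and the latter polarized, and gap junction function was not measured here. No probe set passed: limma called 0 of 14 at an adjusted p under 0.05, where 0.00900% of all probe sets passed, and 1 of 14 had an unadjusted p under 0.05, where 4.74% of all did. With the replicate block the counts were 0 and 3 (0.00900% and 9.53% of all), the 3 being DSG2, DSG3 and DSC2 204750_s_at, and with block and trend 0 and 6 (0.711% and 11.8% of all). The lowest limma adjusted p in that last fit was 0.093, for DSG2. The groups overlapped for all 14 (1.23% of all probe sets lay wholly higher and 1.30% wholly lower in AGA).

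The direction was more uniform than the tests. In AGA 6 of 14 probe sets were above vehicle in 4 of 4 pairs, for DSG2, DSG3, DSC2 (both), PKP1 and PKP3. The share was 9.15% of all probe sets and 12.5% of those above the median level, but both DSC2 probe sets and EVPL lay below that level. None of the 14 was below vehicle in 4 of 4 pairs, against 9.07% of all. In 10 of 14 the mean was above vehicle (49.9% of all). The median difference over the 14 was 0.25, beside 0.00 over all probe sets, with pair medians of 0.14, 0.07, 0.30 and 0.28. The 6 basal markers had a median of 0.25 in the same comparison and the 8 luminal markers 0.12 (4 above 0 and 3 below). The part of either list in the desmosomal difference was not tested. The scale bears on these values. Medians of deposited intensity in replicates 1 to 4 were 23.3, 30.2, 23.7 and 25.6 in AGA and 29.6, 29.8, 35.9 and 29.6 in vehicle. Without normalization the median of all probe sets was -0.24 in AGA minus vehicle and that of the 14 was -0.021, so the 14 lay 0.22 above all. On that scale only 1 of 14 was higher in 4 of 4 pairs. DSG2 (0.21), DSG3 (0.10), DSC2 (0.51 and 0.20) and the bright PKP1 probe set (0.12) kept their sign in the mean there, whereas PKP3 209873_s_at (-0.07), the dim PKP1 probe set (-0.21) and PPL (-0.21) did not.

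**Figure D2:**
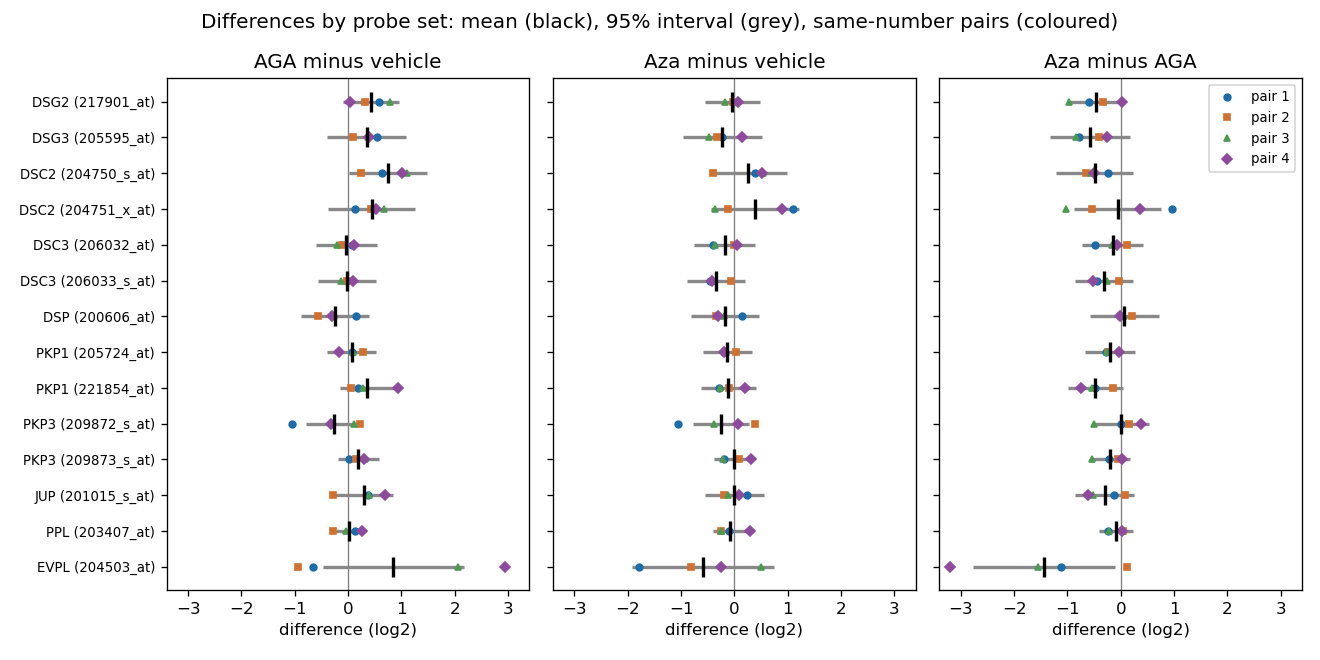
Difference in level (log2) for each of the 14 probe sets in AGA minus vehicle, Aza minus vehicle and Aza minus AGA, with the mean in black, its unadjusted 95% interval from limma without the replicate block in grey, and the 4 same-number pairs as coloured points. In AGA minus vehicle the 4 points of DSG2, DSG3, both DSC2 probe sets, PKP1 221854_at and PKP3 209873_s_at lie right of 0, and the grey intervals cross 0 except for DSC2 204750_s_at there and EVPL in Aza minus AGA.

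Aza against vehicle asked whether these transcripts differ where a methyltransferase inhibitor was given from plating onward. The comparison shares its vehicle arrays with the one above. Limma called 0 of 14 (0.00900% of all), and 0 of 14 had an unadjusted p under 0.05 (3.27% of all). With the block 0 of 14 passed (0.00% of all) and 1 had an unadjusted p under 0.05 (5.40%). With block and trend the counts were 0 (0.00450%) and 3 (6.46%). The median difference was -0.12, with 12 of 14 below 0 (50.2% of all), but pair 4 had a median of 0.08 while pairs 1 to 3 had -0.20, -0.10 and -0.24. No probe set was higher than vehicle in 4 of 4 pairs (7.62% of all) and 1 was lower, for DSC3 (7.12% of all). All 14 overlapped between the groups (0.846% of all lay wholly higher and 0.878% wholly lower in Aza). Over the 3 pairs left without replicate 4, 6 of 14 probe sets were lower in Aza in every pair, against 13.7% of all probe sets. DSG2, whose promoter window held 36 CG dinucleotides, differed by -0.04 ± 0.24, and DSG3, with 6 in its window, by -0.22 ± 0.34 (SE, n = 4 each). DSP (37) differed by -0.17 and the DSC3 probe sets (25) by -0.18 and -0.34. The DSC2 probe sets (15 and 22) differed by 0.26 and 0.38, JUP (23 and 19) by -0.00015 and the PKP1 probe sets (19) by -0.13 and -0.12. None of these passed, and a link between CG counts and the differences was not tested.

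Aza against AGA compared the groups labelled not polarized with each other. Limma called 0 of 14 (0.0135% of all), 0 with the block (0.00900%) and 1, DSG3, with block and trend (0.860%). Unadjusted p lay under 0.05 for 1 of 14 (4.78% of all), for 5 with the block (9.12%; DSG2, DSG3, DSC2 204750_s_at, DSC3 206033_s_at and PKP1 221854_at) and for 5 with block and trend (11.2%). In Aza 5 of 14 were below AGA in 4 of 4 pairs, against 8.80% of all probe sets and 11.8% of those above the median level. They were DSG3, DSC2 204750_s_at (which lay below that level), DSC3 206033_s_at and both of PKP1. None was above AGA in 4 of 4 pairs (8.66% of all), and no probe set had groups that did not overlap (1.25% of all wholly higher, 1.35% wholly lower in Aza). The median difference was -0.25, with 12 of 14 below 0 (50.3% of all) and pair medians of -0.26, -0.05, -0.53 and -0.05, so that replicates 1 and 3 carried most of it. AGA 1 and AGA 3 had the lowest medians of deposited intensity, 23.3 and 23.7, against 31.0 and 30.2 for Aza 1 and Aza 3. In pairs 2 and 4 these medians were close (30.2 and 25.6 in AGA, 30.8 and 25.5 in Aza). The part of array brightness in the differences was not tested. In Aza minus AGA the 6 basal markers had a median of -0.26 and the 8 luminal markers -0.42 (2 above 0 and 5 below). Without normalization the median of the 14 desmosomal probe sets was -0.05, beside 0.18 for all probe sets, and 2 of 14 were lower in 4 of 4 pairs. DSG2 resembled DSG3 (-0.47 ± 0.24, SE) but was nearly equal in replicate 4, and reached a limma adjusted p of 0.0619 with block and trend. DSP differed by 0.07 ± 0.29 (SE; 95% interval -0.57 to 0.71).

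Markers of other cell types were set beside these values. Fibroblast markers had a probe set for 7 of 7 genes, 2 above the median level, and a summed level of 143 to 219 in AGA, 220 to 288 in Aza and 183 to 262 in vehicle, with LUM at the floor on every AGA array. DCN, a matrix proteoglycan, averaged 4.47 ± 0.21 in AGA, 5.94 ± 0.54 in Aza and 4.63 ± 0.65 in vehicle (SD, n = 4 each), and rose in Aza against AGA with block and trend (limma adjusted p = 0.0162). It did not pass in the fit without block (0.619) or with the block alone (0.232, limma adjusted p). Of the 7 fibroblast markers 4 were above 0 in that comparison and 3 below, with COL1A2 at -1.12, FAP at -0.91 and COL3A1 at -0.42. Endothelial markers (5 of 5) summed to 104 to 230 in AGA, 190 to 330 in Aza and 159 to 315 in vehicle. KDR, the 1 endothelial marker above the median level, also rose in that comparison with block and trend (0.75, limma adjusted p = 0.013), but not without the block (1) or with the block alone (0.298). PECAM1 (-1.50), VWF (-1.18) and CDH5 (-0.44) were below 0 there and TEK (0.31) above, none passing. CDH5 averaged 0.76, 0.33 and 1.18 in AGA, Aza and vehicle. Leukocyte markers (4 of 6) summed to 31.6 to 42.9 in AGA, 14.1 to 40.1 in Aza and 13.1 to 47.1 in vehicle. Adipocyte markers (4 of 4) summed to 42.1 to 84.2 in AGA, 45.4 to 128 in Aza and 42.0 to 79.6 in vehicle. Melanocyte markers (3 of 4) summed to 14.8 to 33.8 in AGA, 23.9 to 42.4 in Aza and 19.2 to 31.3 in vehicle. Their part in the desmosomal differences was not tested.

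The replicate number took a larger share of the variation than the group for most of these transcripts, as for most probe sets on the array. Its median share of the sum of squares over the 12 arrays was 50.1%, against 19.7% for the group. Over all probe sets that varied these medians were 40.8% and 12.5%. The replicate number exceeded the group in 12 of 14 probe sets (85.7%, beside 77.4% of all that varied). With 4 numbers and 3 groups, the replicate number would take a larger share even of unrelated variation. DSP (84.0%), DSC3 206032_at (83.1%) and the dim PKP1 probe set (81.1%) moved most with it. DSP averaged 11.34, 11.45, 11.61 and 12.23 over replicates 1 to 4, a wider span than that between its group means. DSC3 and DSG3 instead peaked in replicate 2. PKP3 209872_s_at and EVPL were the exceptions, with 6.18% and 7.94% by replicate number against 15.3% and 35.8% by group.

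**Figure D3:**
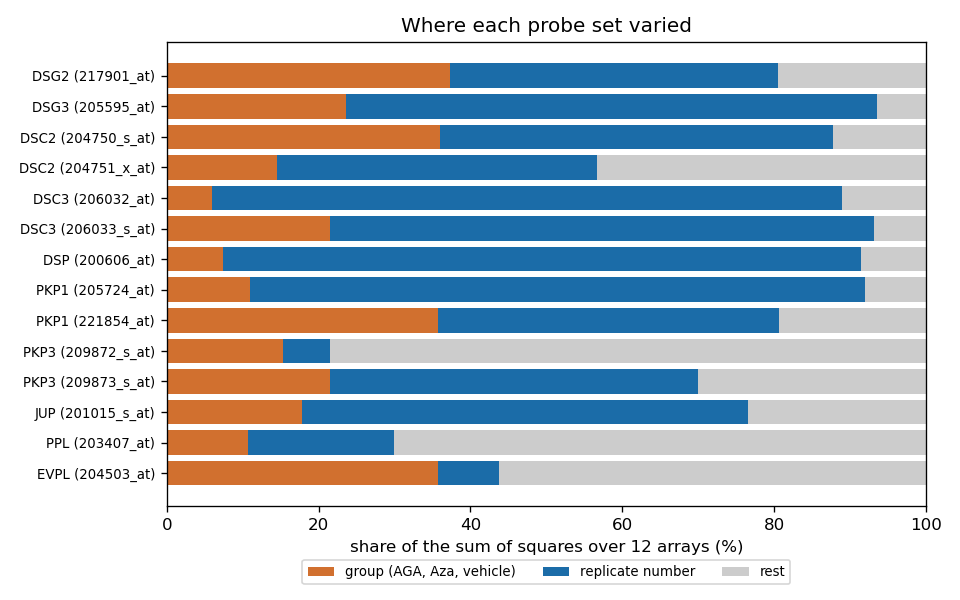
Share (%) of each probe set's sum of squares over the 12 arrays taken by the group, by the replicate number and by the rest. The replicate number has its highest shares for DSP, DSC3 206032_at and PKP1 205724_at, and the group share is highest for DSG2, DSC2 204750_s_at, EVPL and PKP1 221854_at.

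After each replicate number's mean was subtracted, the 10 genes (brightest probe set each) were compared with each other over the 12 arrays. These correlations are a description, since all points share arrays, treatments and normalization. The median r over 45 pairs was 0.54, with 37 above 0 and 27 above 0.5. DSG2 and DSG3 had an r of 0.86, PKP1 and JUP 0.83, PKP1 and EVPL 0.85, and DSG3 and PKP1 0.79. DSP stood apart, with r below 0 to 7 of the other 9 genes and -0.52 to PKP3, and it was above 0 only to PPL (0.22) and DSC3 (0.16). Outside the family, the 5 genes most like the average of the 10, among 6625 genes above the median level, were DIXDC1 (r = 0.98), NDRG1 (0.97), FEZ1 (0.95), CRYL1 (0.95) and FICD (0.95), by the same measure. The 10 genes were averaged without scaling. EVPL, at the edge of measurement, had the widest spread of them and so weighed most in that average.

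**Figure D4:**
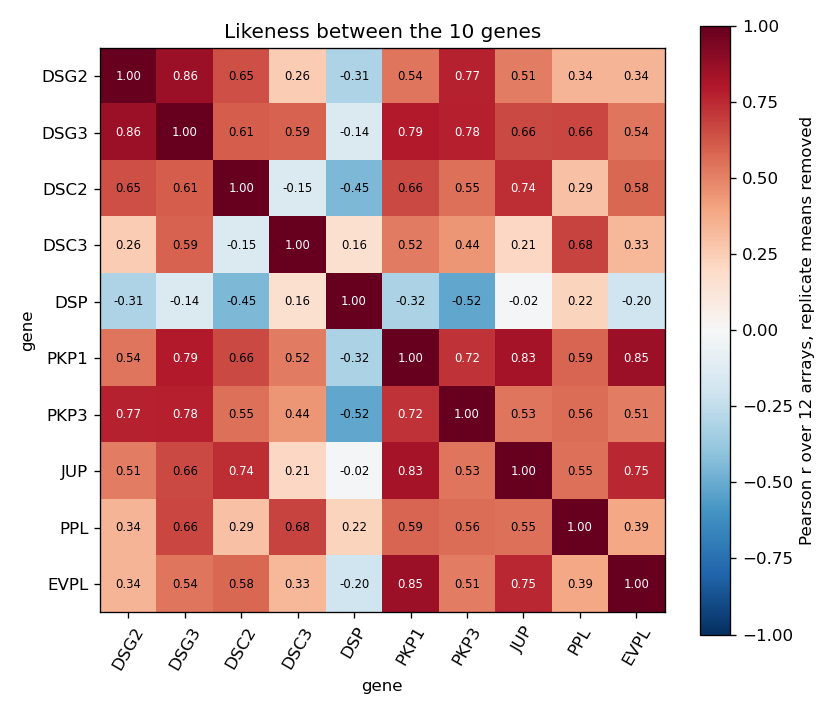
Pearson r between the 10 genes over 12 arrays after each replicate number's mean was subtracted, brightest probe set per gene, from -1 (blue) to 1 (red). The block of DSG2, DSG3, PKP1 and JUP is red, and the row of DSP is mostly below 0.

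Other desmosomal genes were examined as a list of 7, of which 6 had a probe set with 1 symbol. In this and every other list, marker lists included, each gene is given by its brightest probe set. Limma called 0 of 6 in each comparison, in each fit. Their median difference was 0.10 in AGA minus vehicle, -0.17 in Aza minus vehicle and -0.27 in Aza minus AGA, where 0 of 6 were above 0. PERP, a tetraspan membrane protein of desmosomes, averaged 10.33 ± 0.45 in AGA, 10.12 ± 0.38 in Aza and 10.31 ± 0.34 in vehicle (SD, n = 4 each), and was below AGA and below vehicle in 4 of 4 pairs in Aza (-0.21 and -0.19). PKP4, a plakophilin relative also found at adherens junctions, differed by -0.32 ± 0.22 (SE) in Aza minus AGA, in 4 of 4 pairs. DSG1 and DSC1, cadherins of differentiated epidermis, were dim: DSG1 averaged 0.39 in AGA, 0.28 in Aza and 1.23 in vehicle, and DSC1 averaged 2.88, 1.60 and 0.94 in the same order.

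Keratins, the filaments that desmosomes anchor, had a probe set with 1 symbol for 8 of 11 genes. Limma called 0 of 8 in each comparison, and with block and trend 1 in AGA minus vehicle and 1 in Aza minus AGA, both KRT16, a keratin of stressed and wounded epidermis. KRT16 averaged 9.12 ± 1.55 in AGA, 7.85 ± 1.04 in Aza and 7.62 ± 0.89 in vehicle (SD, n = 4 each). In that fit it rose in AGA by 1.50 (limma adjusted p = 0.022) and fell in Aza relative to AGA by 1.27 (0.0372). With the block alone its limma adjusted p was 0.409 and 0.301 in these comparisons. KRT14, the partner of KRT5 in basal cells, averaged 12.83 ± 0.08 in AGA and 12.09 ± 0.73 in vehicle (0.74 ± 0.37, SE). KRT18 of simple epithelia was higher in AGA than in vehicle in 4 of 4 pairs (0.49 ± 0.23, SE), as were 9.15% of all probe sets. Neither keratin passed. Median differences over the 8 were 0.12 in AGA minus vehicle, -0.09 in Aza minus vehicle and -0.42 in Aza minus AGA.

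The classical cadherins and catenins of adherens junctions, 6 of 7 measured, had 0 calls in each fit and medians of -0.07 in AGA minus vehicle, -0.08 in Aza minus vehicle and 0.05 in Aza minus AGA. CTNNB1, the plakoglobin relative, differed by -0.16 ± 0.20 in AGA and -0.17 ± 0.20 in Aza, both against vehicle (SE, n = 4 each). CTNNA1, which links catenins to actin, differed by -0.03 ± 0.12 (SE) in AGA minus vehicle. Partners of PPL and EVPL in the cornified envelope, 9 of 11 measured, were all dim, none having a mean above the median level of the array. They too had 0 calls in each fit, with medians of 0.04, 0.17 and -0.20 in AGA minus vehicle, Aza minus vehicle and Aza minus AGA. TGM5, a transglutaminase, had the lowest p of them in Aza minus vehicle (-1.33 ± 0.46, SE; limma adjusted p = 1), and SPRR2B in Aza minus AGA (2.23 ± 0.93, SE). Squamous markers (9 of 10 measured, 1 above the median level, KRT10) summed to 3289 to 7226 in AGA, 4446 to 7925 in Aza and 5097 to 8856 in vehicle. KRT10 fell in AGA against vehicle by 0.41 on the log2 scale with block and trend (limma adjusted p = 0.0198), a call absent without the block (1) and with the block alone (0.449).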

How the data were processed

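RNA of 12 cultures was measured on 1 array each. The authors deposited intensity values on a linear scale, made with GCOS per the submitters' processing notes; algorithm, version and scaling are not given in the sources used here, and 2.25 µg of RNA was labelled per the labels' protocols. Of 22277 probe sets 62 controls were left out, and values below 1 (5.26% to 7.94% per array) were set to 1. Log2 values were quantile normalized and fitted with limma 3.58.1 (lmFit, eBayes) in R 4.3.3 over all 12 arrays, with Benjamini-Hochberg adjustment over 22215 probe sets at 0.05, two-sided. The fits without and with the replicate block were tested on simulated data with independent arrays. The fit with block and trend was not tested in this way. Of the probe sets 19064 carry 1 gene symbol, 1043 several and 2108 none.

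Replicate numbers were checked as pairs on deviations from group means. Over 11107 probe sets above the median level, 12 of 12 same-number pairs correlated over 0.1 (0.368 to 0.781; different numbers at most 0.181), and over all probe sets 6 of 12 (0.0589 to 0.261). The numbers were treated as pairs; the labels give only the numbers. Fits with a replicate block, an intensity trend, other scalings, floors and left-out arrays were alternatives. Every fit with the intensity trend also used the robust option of eBayes, and no other fit did. No arrays were duplicates. The members and lists were chosen with earlier results of these data known. All member probe sets are named; of each list, genes with the 4 lowest limma p per comparison may be named, and further genes (KRT5, EPCAM and marker genes among them) were named after their values were seen. The number of arrays limits the precision.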

Additional observations from a re-analysis of the deposited data

Results flagged for a closer look

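In the 42 groups of 4 arrays examined (14 probe sets in 3 groups), 2 held an array far from the others, where chance gives about 1 in 20. PKP1 221854_at was 9.40 on Aza 2, against 8.65 to 8.76 on the other Aza arrays. EVPL was 0.65 on Aza 4, against 1.49 to 1.56 on the other Aza arrays, all near the floor. DSG3 differed between the treatments only in fits with the replicate block and intensity trend. Aza minus AGA was -0.57 there (limma adjusted p = 0.014, where 0.860% of all probe sets passed). The limma adjusted p was 0.0059 to 0.28 over the other settings of that fit. DSG3 was lower in Aza in 4 of 4 pairs (8.80% of all probe sets). It did not pass with the block alone (limma adjusted p = 0.333) or without block and trend (95% interval -1.32 to 0.17).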

How the results depend on the processing

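The 14 probe sets were refitted under 37 settings, giving 1551 single results. Of these, 1533 stayed on the same side of the limma threshold and 18 passed it, all with the replicate block and intensity trend, while 99 had the other sign. On all arrays at the main scale, the block, the trend and Holm adjustment left each difference as it was, so no sign could change there. The count of called probe sets stayed at 0 in every comparison with the replicate block alone, the trend alone, the deposited scale, median-centred arrays, a floor of 16, dim probe sets left out, only the arrays of the 2 groups compared, Holm adjustment or any array left out. Holm adjustment cannot give a lower adjusted p than the main adjustment, so its count of 0 was fixed in advance. With block and trend, Aza minus AGA had 1 call, 1 with arrays centred on their medians, 2 when all replicate 4 arrays were left out (DSG3, and DSG2 at a limma adjusted p of 0.0216), 0 on the deposited scale and 0 to 2 with an array left out. AGA minus vehicle had 0 to 1 there: DSP fell by 0.36 without vehicle 1 (limma adjusted p = 0.0314), and DSG2 rose by 0.58 without AGA 4 (0.0201). DSG2 also passed in Aza minus AGA without AGA 4 (0.0111) or Aza 4 (0.0473), and PKP1 221854_at without vehicle 4 (0.024) or AGA 2 (0.0325). The median difference in AGA minus vehicle was -0.021 on the deposited scale and 0.13 with a floor of 16, and 0.15 to 0.36 with an array left out. It was -0.19 to 0.00 for Aza minus vehicle and -0.40 to -0.19 for Aza minus AGA with an array left out.

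Counts by pairs, whose alternatives were chosen after seeing the data, moved more. On the deposited scale 1 probe set was higher in AGA than vehicle in 4 of 4 pairs, 2 were lower in Aza than vehicle and 2 lower in Aza than AGA. With an array and its pair left out the counts were 6 to 7, 1 to 6 and 5 to 8, the last highest without AGA 2 or Aza 2 (14.8% of all probe sets were lower in those 3 pairs). Without all replicate 4 arrays 6 were lower in Aza than vehicle (13.7% of all). The cause was not tested. Fewer pairs are more easily all on 1 side.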
